A study of Saccharomyces cerevisiae with 4 samples.

Results

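The deposited peak lists of the yeast transcription factors Pho4 and Cbf1 held 600 peaks whose summits lay within 30 kb of an end of chromosomes I to XIII, of 6744 peaks in all. A peak was counted by the position of its summit, the highest point that the peak caller recorded, and no enrichment value entered the choice. The 600 peaks comprised 195 and 141 in Pho4 replicates 1 and 2 and 105 and 159 in Cbf1 replicates 1 and 2. The lists covered unequal stretches of the genome, because their chromosomes stood in text order and 3 of them stopped early. The sequence reached by all 4 lists contained 15 chromosome ends and 450000 bp of end sequence, or 8.94% of its 5035657 bp. These 15 ends held 387 peaks, namely 116 and 84 of Pho4 plus 105 and 82 of Cbf1, and the interior held 3432. Comparisons below use these 15 ends, and the 11 further ends, which the Cbf1 replicate 1 list does not reach, are described separately.

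Each group was 2 ChIP-nexus libraries, which map protein-DNA contacts by digesting immunoprecipitated DNA with an exonuclease as far as the bound protein. Pho4 was tagged as PHO4::9myc::TRP1 in W303 Z1441, and Cbf1 as CBF1::9myc::TRP1 in W303 Z1497, so factor and strain cannot be told apart. Both tagged proteins were precipitated with the anti-Myc antibody 9E10. The labels attach the same protocol to all 4 libraries, with growth in rich medium at 25 °C and then 2 h without phosphate. No untagged, input or phosphate-replete library was used here. Nothing in the labels says that replicates came from separate cultures, so the spread between replicates may be technical.

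Pho4 is a basic helix-loop-helix activator that enters the nucleus when phosphate is scarce and switches on genes of phosphate uptake and scavenging. Cbf1 belongs to the same protein family, binds sulfur and methionine genes and centromeres, and recognises the same E-box, CACGTG. Chromosome ends in budding yeast carry telomeric repeats, X elements and, at some ends, Y′ elements, followed by gene families for sugar use, flocculation and cell wall proteins that occur in near-identical copies. Silent chromatin covers parts of these ends.

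Some E-boxes of the end regions carried high summits, and those in repeated sequence carried none within 50 bp. The following examples are printed for that contrast. Other E-boxes in unique sequence had low summits or none. Each run is 5′ to 3′ on the forward strand of the R64 reference of strain S288C, with CACGTG in capitals and 20 bp on each side.
Near GIT1, high in Pho4, chrIII:299098-299143: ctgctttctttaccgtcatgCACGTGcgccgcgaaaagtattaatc
Near PHO89, Pho4 lists, chrII:798820-798865: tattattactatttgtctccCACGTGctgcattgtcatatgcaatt
Near YER186C, high in Pho4, chrV:562758-562803: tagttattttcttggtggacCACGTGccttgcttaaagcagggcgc
Near HXK1, high in Pho4, chrVI:255485-255530: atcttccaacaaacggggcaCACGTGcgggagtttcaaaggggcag
Near RMD6, high in Cbf1, chrV:13460-13505: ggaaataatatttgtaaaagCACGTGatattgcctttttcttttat
Left end of chromosome IX, high in Cbf1, chrIX:21731-21776: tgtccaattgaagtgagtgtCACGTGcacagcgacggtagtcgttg
Near KGD4, Cbf1 lists, chrVI:248216-248261: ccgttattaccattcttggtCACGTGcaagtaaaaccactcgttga
PHO11 promoter, no summit within 50 bp, chrI:225157-225202: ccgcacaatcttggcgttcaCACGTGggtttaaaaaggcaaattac
Y′ element, no summit within 50 bp, chrII:2409-2454: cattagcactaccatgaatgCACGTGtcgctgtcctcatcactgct
Y′ element, no summit within 50 bp, chrIX:2381-2426: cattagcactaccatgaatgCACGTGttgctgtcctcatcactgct

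The Y′ form on chromosome II occurred 13 times in the reference, counting both strands, and the form on chromosome IX occurred 6 times. The PHO11 window likewise occurred 2 times, the second copy lying in the promoter of PHO12. The windows near GIT1, PHO89, YER186C, HXK1, RMD6 and KGD4 and the one on the left end of chromosome IX each occurred 1 time.

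The highest Pho4 peaks at these ends lay on E-boxes, and the first 2 were near genes of phosphate uptake. They are named by their mean fold rank in the 2 Pho4 lists, so their Pho4 values are a description without a test. Fold is the authors' ratio of summit height to local background, with 1 read added to each, which matters where the background is low. Near GIT1, which encodes a permease for glycerophosphodiesters, the fold was 39.1 and 38.3 in the Pho4 lists, against 6.88 and 11.9 in the Cbf1 lists. These were the highest Pho4 folds at the 15 ends, and the summit lay 503 bp upstream of the annotated gene start. Near PHO89, a sodium-phosphate cotransporter, the fold was 32.3 and 31.5 in the Pho4 lists, and neither Cbf1 list held a peak there. The summit lay 335 bp upstream of PHO89.

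Near YER186C, a gene of unknown function, the fold was 30.1 and 32.6 in the Pho4 lists, against 4.48 and 7.64 in the Cbf1 lists. Near HXK1, a hexokinase, the fold was 22.7 and 24.1 in the Pho4 lists, against 1.83 and 2.31 in the Cbf1 lists. Inside LYS1, which encodes the last enzyme of lysine synthesis, the fold was 21.2 and 20.5 in the Pho4 lists, against 3.45 and 6.96 in the Cbf1 lists. At each of these 5 places from GIT1 to LYS1 both Pho4 values lay above both Cbf1 values, or the Cbf1 lists had no peak. The choice by Pho4 rank favours this, and folds of different lists also differ in depth. Among the 8 peaks named by Pho4 rank, those in FLO1 and on the left end of chromosome II, described below, did not show it. At the very left end of chromosome I, in the telomeric region, the fold was 14.1 and 11.9 in the Pho4 lists, against 3.64 and 3.92 in the Cbf1 lists, and an E-box lay within 50 bp of both Pho4 summits. The peaks of the first 5 consisted wholly of unique sequence, meaning that each 40-base word in them occurs 1 time in the reference.

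The highest Cbf1 peaks on E-boxes were also peaks of the Pho4 lists. Cbf1 replicate 2 gave the higher fold of the 2 Cbf1 libraries at each of the first 3. On the left end of chromosome IX, between the HXT12 pseudogene and CSS1, the fold was 9.49 and 10.4 in the Pho4 lists, against 13.1 and 26.1 in the Cbf1 lists. Upstream of RMD6, a gene named for a meiotic phenotype, it was 9.28 and 10.7 in the Pho4 lists, against 9.86 and 23.7 in the Cbf1 lists. Upstream of YIR042C, a gene of unknown function, it was 6.68 and 7.80 in the Pho4 lists, against 8.85 and 20.0 in the Cbf1 lists. The peak on chromosome IX was 33.0% unique, although its E-box window occurs 1 time. The Pho4 and Cbf1 values overlapped near RMD6 but not at the other 2 places. These peaks were named by Cbf1 rank, which favours higher Cbf1 values. The E-box upstream of YIR042C lay within 50 bp of the summit in 3 of the 4 lists, and not in Cbf1 replicate 2. All 3 of these E-boxes have a T directly 5′ of the core on one strand, whereas those near GIT1, PHO89, YER186C, HXK1 and LYS1 have none.

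**Figure D1:**
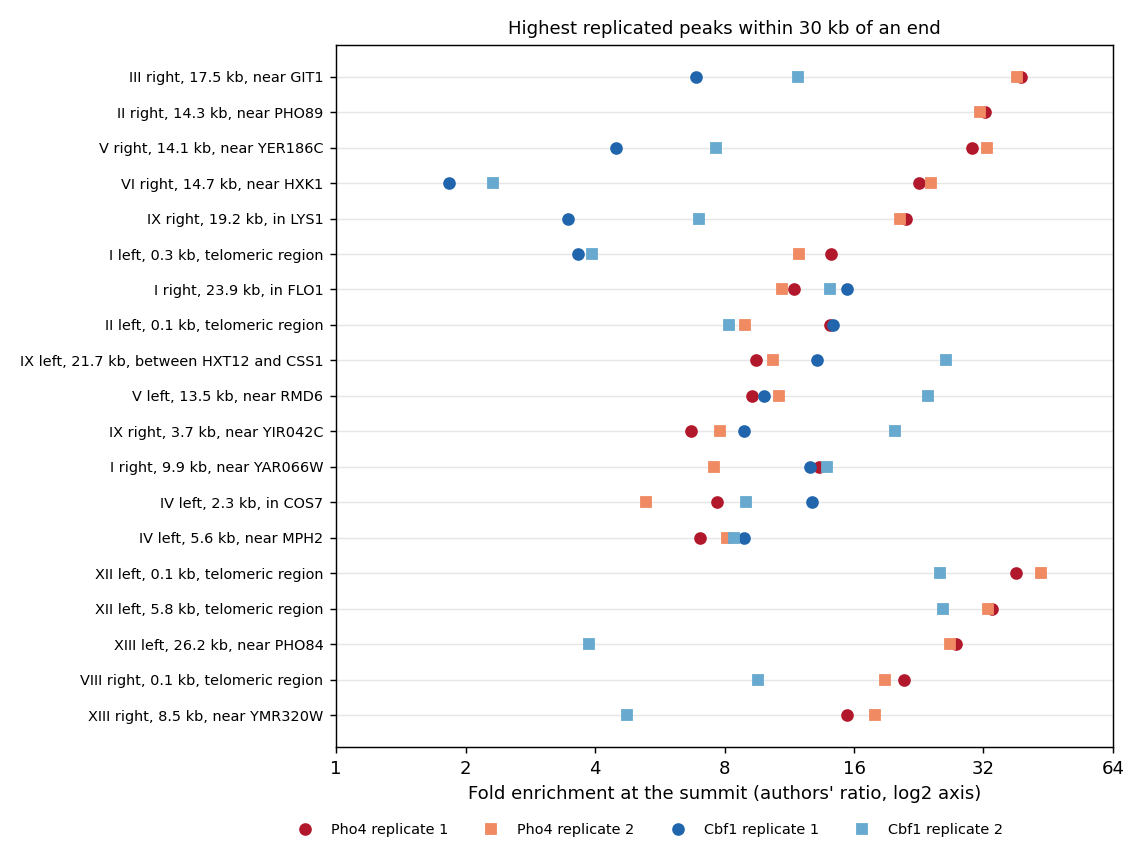
Fold enrichment (horizontal log2 axis) of the highest replicated peaks within 30 kb of an end, one row per peak with its chromosome end, distance to the end and nearest feature; points are the 4 libraries and a missing point means no peak or a list that does not reach the place. The points of Pho4 replicates 1 and 2 for GIT1 sit at 39.1 and 38.3, right of the Cbf1 points at 6.88 and 11.9, while the 4 points of FLO1 lie between 10.9 and 15.4.

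A second kind of high peak stood out by a low local background. The local background is the expected read height at the summit, solved here from the authors' fold and p-value. Inside FLO1, a cell-surface flocculin with internal repeats, the fold was 11.6 and 10.9 in the Pho4 lists, against 15.4 and 14.1 in the Cbf1 lists. The FLO1 local background was 3.74 and 1.76 reads in the Pho4 lists, against 5.49 and 3.41 reads in the Cbf1 lists. In the telomeric region of the left end of chromosome II the fold was 14.1 and 8.95 in the Pho4 lists, against 14.3 and 8.17 in the Cbf1 lists. The background there was 1.20 and 0.90 reads in the Pho4 lists, against 1.87 and 1.08 reads in the Cbf1 lists. All 4 libraries had a peak at both places, and the Pho4 and Cbf1 values overlapped on chromosome II.

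Inside COS7, a member of a subtelomeric membrane protein family, the fold was 7.69 and 5.25 in the Pho4 lists, against 12.7 and 8.96 in the Cbf1 lists. The COS7 summits were only 12 and 7 reads high in the Pho4 lists, against 28 and 14 reads in the Cbf1 lists. Upstream of MPH2, a maltose permease, the fold was 7.01 and 8.09 in the Pho4 lists, against 8.88 and 8.43 in the Cbf1 lists. The MPH2 summits were 10 and 10 reads high in the Pho4 lists, against 18 and 13 reads in the Cbf1 lists. Inside YAR064W, a short gene on the right end of chromosome I, the fold was 13.3 and 7.55 in the Pho4 lists, against 12.7 and 13.8 in the Cbf1 lists. No E-box lay within 50 bp of these 5 summits, and between 35.0% and 79.7% of the sequence of each peak was unique in the reference. The part of repeated sequence in these peaks was not tested.

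At the 11 further ends the 2 highest replicated Pho4 peaks lay on the left end of chromosome XII and were of this kind. The peak nearest the end had a fold of 38.1 and 43.6 in the Pho4 lists, against 25.4 in Cbf1 replicate 2. Its background was 1.44 and 1.94 reads in the Pho4 lists, against 0.615 reads in Cbf1 replicate 2. The peak inside YLL066W-B had a fold of 33.4 and 32.7 in the Pho4 lists, against 25.7 in Cbf1 replicate 2. At the right end of chromosome VIII the fold was 20.9 and 18.9 in the Pho4 lists, against 9.57 in Cbf1 replicate 2, on backgrounds of 0.44 and 0.37 reads in the Pho4 lists and 0.15 reads in Cbf1 replicate 2. Sequence of 61 bp around the summit at the very end and around the FLO1 summit is shown because neither holds CACGTG, with the summit base in capitals.
Left end of chromosome XII, chrXII:66-126: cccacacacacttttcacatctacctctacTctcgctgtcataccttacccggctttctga
FLO1, chrI:206337-206397: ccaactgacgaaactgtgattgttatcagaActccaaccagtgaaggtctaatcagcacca

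The third of the further ends' Pho4 peaks lay 426 bp upstream of PHO84, the high-affinity phosphate transporter, on the left end of chromosome XIII. Its fold was 27.6 and 26.7 in the Pho4 lists, against 3.86 in Cbf1 replicate 2. The summit lay between 2 E-boxes that are printed here because both were within 50 bp of it.
First PHO84 site, chrXIII:26189-26234: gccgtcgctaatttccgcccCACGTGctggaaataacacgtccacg
Second PHO84 site, chrXIII:26211-26256: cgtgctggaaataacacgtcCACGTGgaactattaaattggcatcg
Cbf1 replicate 2 had a separate summit with a fold of 3.05 at an E-box 253 bp upstream of GTR1, a GTPase of nutrient signalling transcribed away from PHO84. The Pho4 lists held no summit within 50 bp of that E-box. On the right end of chromosome XIII, 780 bp upstream of YMR320W, a gene of unknown function, a peak on an E-box had a fold of 15.4 and 17.9 in the Pho4 lists, against 4.74 in Cbf1 replicate 2. The reverse case was YCT1, a cysteine transporter on the left end of chromosome XII. An E-box with a T on both strands lay 752 bp upstream of YCT1, and it had a fold of 22.1 in Cbf1 replicate 2 with no summit in either Pho4 list.
YCT1 site, chrXII:29335-29380: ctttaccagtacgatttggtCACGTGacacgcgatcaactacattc

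Peaks near the ends stood on a lower local background than interior peaks in each library. The median background was 12.2 and 6.71 reads at the ends in the Pho4 lists, against 22.7 and 11.8 reads in the interior. In the Cbf1 lists it was 14.4 and 9.21 reads at the ends, against 29.1 and 18.1 reads in the interior. On the log2(background + 1) scale the ends minus interior difference averaged -0.86 ± 0.10 (SD, n = 4 libraries) and was negative in 4 of 4. The two-sided exact sign-flip permutation p was 0.13, the smallest that 4 libraries allow, and 0.16 after Benjamini-Hochberg adjustment over 10 results. The median summit height was 39 and 30 reads at the ends for Pho4, against 72 and 42 reads in the interior. For Cbf1 it was 40 and 29 reads at the ends, against 66 and 50 reads in the interior. Among peaks whose surrounding 10 kb was at least 95% unique, the height was 56 and 49 reads at the ends for Pho4, against 75 and 44 reads in the interior. For Cbf1 it was then 58.5 and 49 reads at the ends, against 69.5 and 52 reads in the interior, so that Pho4 replicate 2 turned and the Cbf1 replicate 2 values came close.

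The background changed with distance. Within 5 kb of an end its median was 8.04 and 3.67 reads across the Pho4 lists and 7.01 and 3.48 reads across the Cbf1 lists. At 25 to 30 kb it was 17.1 and 10.2 reads across the Pho4 lists and 29.4 and 13.9 reads across the Cbf1 lists. The share of positions whose 40-base word is unique in the reference moved with it, from 43.2% within 5 kb and 67.8% at 10 to 15 kb up to 94.5% at 25 to 30 kb, against 95.9% in the interior. Among the same peaks with unique surroundings, the background difference was -0.25, with 31 and 24 Pho4 and 21 and 20 Cbf1 end peaks left, and it was still negative in 4 of 4 libraries. The part of repeated sequence in the remaining difference was not tested.

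Fold enrichment was similar or higher at the ends. Its median was 3.09 and 3.98 at the ends in the Pho4 lists, against 3.09 and 3.37 in the interior. In the Cbf1 lists it was 2.62 and 3.35 at the ends, against 2.14 and 2.74 in the interior. The log2 difference was 0.0018 and 0.24 for Pho4, with 0.29 and 0.29 for Cbf1, and the mean was 0.21 ± 0.14 (SD, n = 4 libraries; two-sided exact sign-flip permutation p 0.13, adjusted 0.16). Among peaks with unique surroundings the mean difference was 0.07. Within 5 kb the median fold was 3.89 and 7.80 across the Pho4 lists and 3.55 and 4.29 across the Cbf1 lists, beside the low backgrounds given above. End peaks were also narrower, by a mean of 38 bp at the median width (SD 20.0 bp, n = 4; exact sign-flip permutation p 0.13). The difference was -19 bp (p 0.25) without peaks of repeated sequence, where Pho4 replicate 2 had 281 bp at the ends, against 275 bp in the interior. Among peaks with unique surroundings the mean turned to 42.9 bp (exact sign-flip permutation p 0.50), with replicate 2 of both factors wider at the ends.

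**Figure D2:**
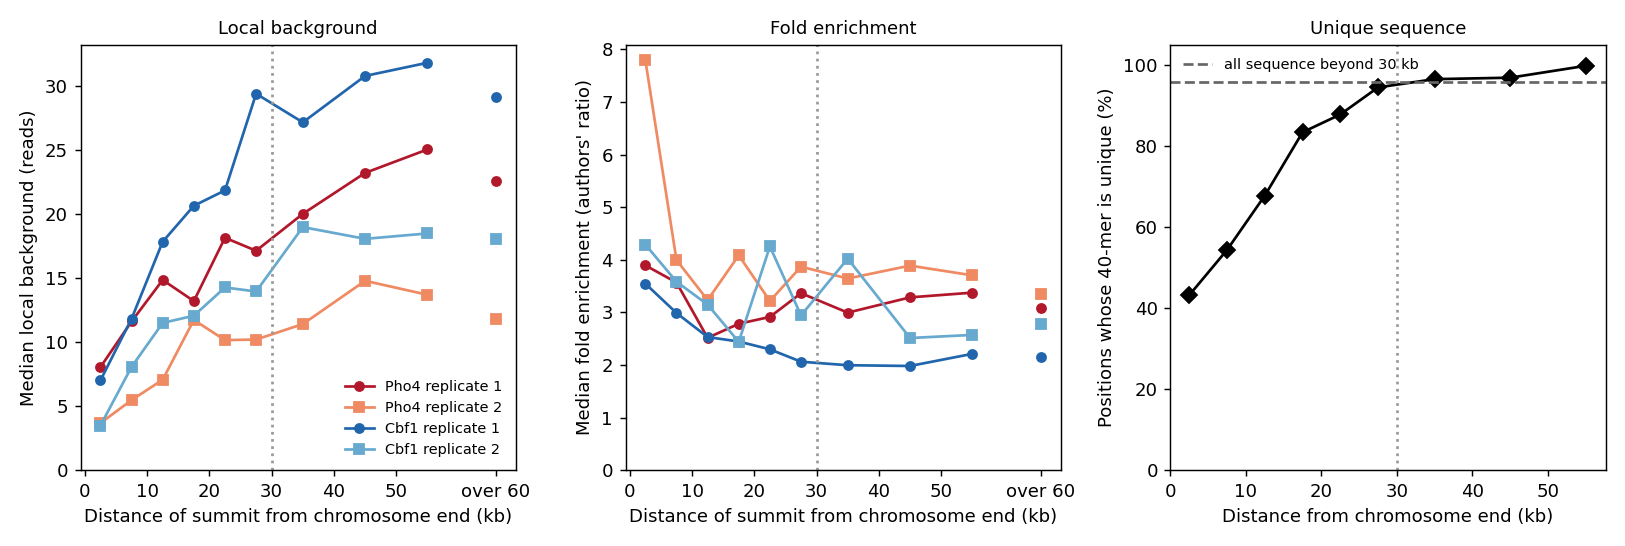
Median local background in reads (left panel) and median fold enrichment (middle panel) of peaks by distance of the summit from the chromosome end in kb, one line per library with the rest of the chromosomes at the far right, and the percentage of positions with a unique 40-base word by distance (right panel). The background lines start at 3.48 to 8.04 reads within 5 kb and lie at 10.2 to 29.4 reads at 25 to 30 kb, while unique sequence goes from 43.2% to 94.5% over the same distance.

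The density of peaks at the ends was close to or above that of the interior, depending on how it was counted, and no count could reach a p below 0.13. The Pho4 lists held 25.8 and 18.7 peaks per 100 kb at the ends, against 21.6 and 18.7 in the interior. The Cbf1 lists held 23.3 and 18.2 per 100 kb at the ends, against 17.8 and 16.8 in the interior. The mean log2 ratio was 0.19 ± 0.17 (SD, n = 4; two-sided exact sign-flip permutation p 0.25), with Pho4 replicate 2 at -0.0017, and it was -0.061 with the upper 50% of each list. Counted per 100 kb of unique positions, and without peaks of repeated sequence, the Pho4 lists held 32.5 and 22.6 peaks at the ends, against 22.4 and 19.5 in the interior. The Cbf1 lists then held 28.2 and 22.3 at the ends, against 18.4 and 17.5 in the interior. The mean log2 ratio by unique positions was 0.43, higher at the ends in 4 of 4 libraries (exact sign-flip permutation p 0.13), and it was 0.23 over each list's own extent (p 0.13). Without repeated peaks but over all positions it was 0.011 (p 1.00). Density within 5 kb was 44 and 22.7 per 100 kb across the Pho4 lists and 38.7 and 26.7 across the Cbf1 lists, although only 43.2% of that sequence was unique.

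Single ends differed. Each of the 15 ends held 5 to 12 and 2 to 10 peaks per Pho4 list and 4 to 12 and 2 to 10 per Cbf1 list. The left ends of chromosomes II, III and I held most, with 40, 36 and 34 peaks over the 4 lists. The right ends of chromosomes II and III held few, with 16 and 19, and the left end of chromosome VII held 20. The 6 ends that the annotation gives a Y′ element had medians of 8 and 7 peaks for Pho4, with 6.5 and 5 for Cbf1. The 9 ends without one had medians of 7 and 5 for Pho4, with 6 and 6 for Cbf1, so the ranges of the kinds of end overlapped in all 4 lists.

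**Figure D3:**
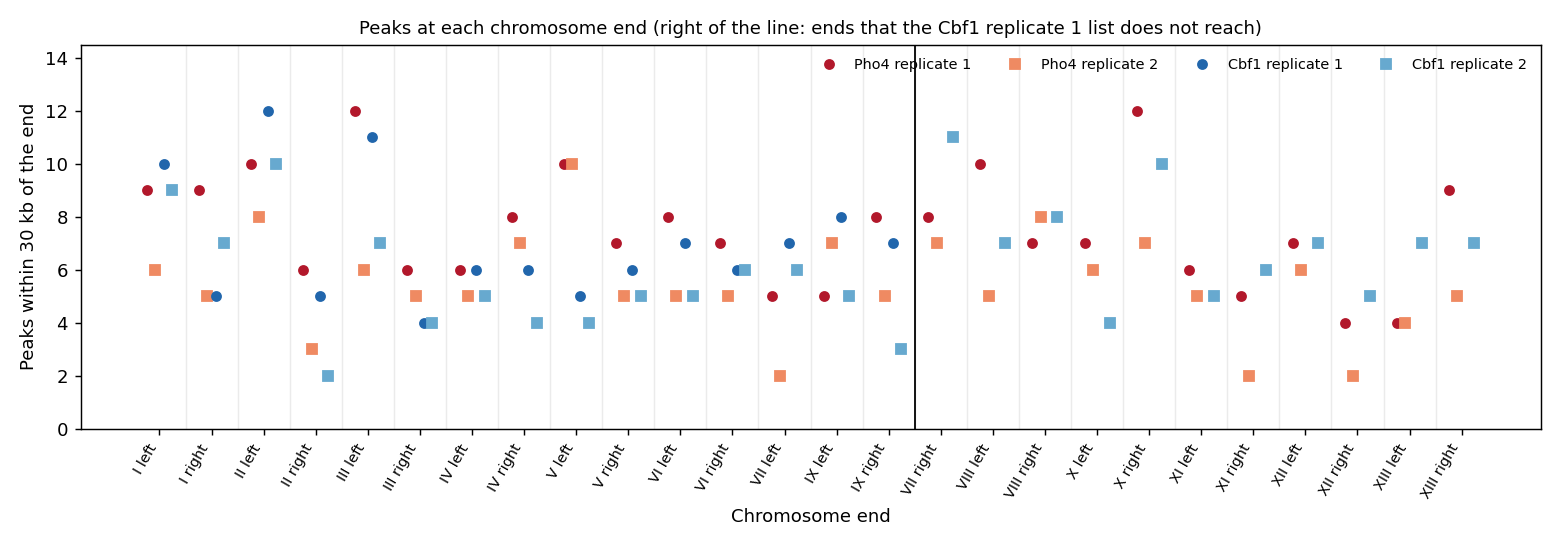
Number of peaks (vertical axis) within 30 kb of each chromosome end, one point per library, with the 15 ends reached by all 4 lists left of the line and the 11 further ends right of it. The points span 2 to 12 peaks per end and the libraries of the factors are interleaved at most ends.

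E-boxes were as frequent at the ends as elsewhere, with 36 sites, or 8.00 per 100 kb, against 363 sites, or 7.92 per 100 kb, in the interior. They carried a summit within 50 bp less often at the ends in each library. The Pho4 lists had a summit at 44.4% and 38.9% of end sites, against 58.4% and 56.2% of interior sites. The Cbf1 lists had one at 25.0% and 30.6% of end sites, against 40.5% and 49.6% of interior sites. Over all sites of this sequence the shares were 57.1% and 54.6% for Pho4, with 39.1% and 47.9% for Cbf1. The mean difference was -16.4 percentage points ± 2.20 (SD, n = 4; two-sided exact sign-flip permutation p 0.13, adjusted 0.16).

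The end sites in repeated sequence had no summit within 50 bp. Of the 36 end sites, 12 lay in windows of which less than 50% of the 40-base words are unique, and none of the 12 had a summit in any of the 4 lists. The 2 interior sites in repeated sequence had none either. The 12 include the sites in Y′ elements and the PHO11 promoter printed above. The cut matters, since Pho4 summits with folds of 4.61 and 16.2 lay more than 50 bp from the PHO11 site. They were 339 and 376 bp upstream of PHO11, whereas the site was 281 bp upstream. A repeated E-box on the left end of chromosome V, chrV:2077-2082, lay within a locus merged from peaks of 3 lists. The folds of that locus were 5.53 and 6.48 in the Pho4 lists and 5.10 in Cbf1 replicate 1. Of the 24 end sites in unique sequence, 19 had a summit in at least 1 list. At those 24 sites the Pho4 shares were 66.7% and 58.3%, against 58.7% and 56.5% of 361 unique interior sites. The Cbf1 shares were 37.5% and 45.8%, against 40.7% and 49.9% of unique interior sites. The mean difference was then 0.63 percentage points (two-sided exact sign-flip permutation p 0.88). The 95% Wilson interval of Pho4 replicate 1 at the 24 sites was 46.7% to 82.0% and that of Cbf1 replicate 1 was 21.2% to 57.3%, so only a large difference could be seen at this number of sites. Intervals here cover counting error only.

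**Figure D4:**
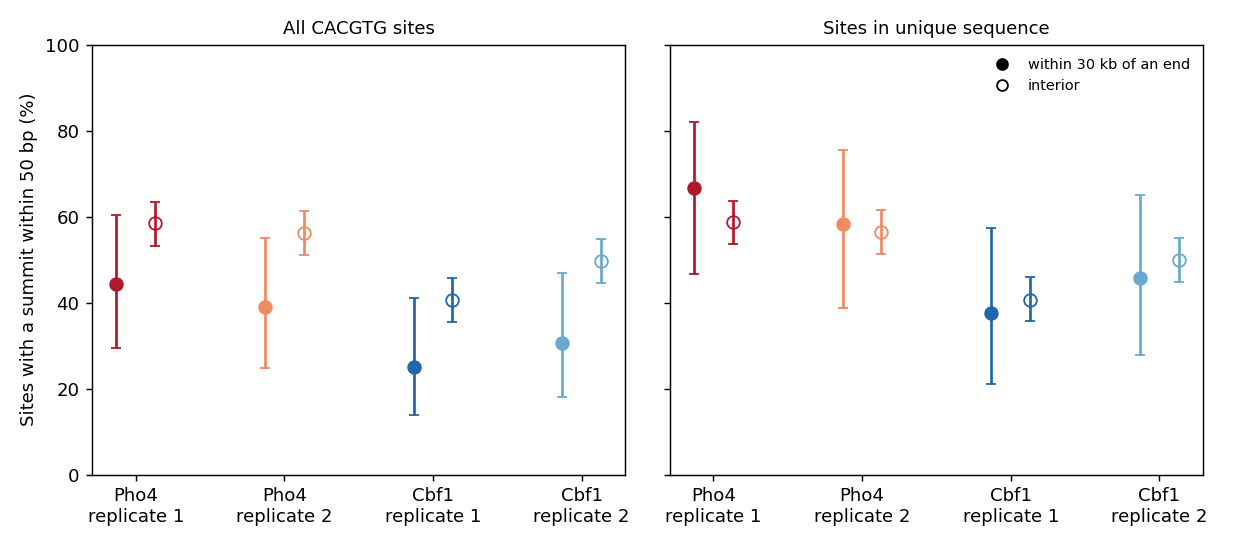
Percentage of CACGTG sites with a summit within 50 bp (vertical axis) in each library, at the ends (filled, left of each pair) and in the interior (open), for all sites (left panel) and for sites in unique sequence (right panel); bars are 95% Wilson intervals. With all sites the end values lie at 25.0% to 44.4% and below their interior partners, and with unique sites they lie at 37.5% to 66.7% and the intervals of each pair overlap.

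A T directly 5′ of CACGTG on either strand went with fewer Pho4 summits in the interior and at the 15 shared ends, but hardly so in Pho4 replicate 1 over all 26 ends. Among the 24 unique end sites, 5 of 14 sites with a T and 9 of 10 without one had a summit in Pho4 replicate 2, and 7 of 14 and 9 of 10 in Pho4 replicate 1. The log2 odds ratio over all 36 end sites was -0.90 and -1.56 for Pho4 (SE 0.95 and 0.99), against -2.37 and -2.26 in the interior. For Cbf1 it was 0.19 and -0.58 at the ends (SE 1.07 and 1.01), against 1.69 and 1.52 in the interior. Interior Cbf1 sites with a T carried a summit at 51.9% and 60.5%, whereas end sites with a T did so at 26.3% in both Cbf1 lists. Over the 24 unique end sites the Cbf1 share with a T was 35.7% in both lists, against 52.4% and 61.1% of unique interior sites with a T. Over the same sites the log2 odds ratio was -2.66 and -3.45 for Pho4, with -0.26 and -1.32 for Cbf1 (SE 1.17 to 1.48). The Pho4 minus Cbf1 difference over the 36 sites was -1.03 (exact permutation p 0.33, two-sided, the lowest that 4 libraries allow). Over all covered ends, Pho4 replicate 1 had a summit at 11 of 28 sites with a T and 13 of 32 without one, and Pho4 replicate 2 at 8 of 28 and 14 of 32. The log2 odds ratios there were -0.075 and -0.92 for Pho4 and 0.71 for Cbf1 replicate 2. The mean over 4 libraries was then -0.024, against -0.71 at the 15 shared ends.

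Sites with a summit of 1 factor within 50 bp were few at the ends. Both Pho4 lists and neither Cbf1 list had a summit at 3 of the 36 sites, against 58 of the 363 interior sites. The 36 include the 12 repeated sites without a summit in any list, whereas only 2 interior sites were repeated. That leaves 24 unique end sites and 361 unique interior sites as the base of these counts. The 3 were the sites near PHO89 and HXK1 and 1 on the left end of chromosome VI with folds of 2.78 and 8.12. Only the PHO89 site had no Cbf1 peak nearby. The Cbf1 summits near HXK1 lay just past 50 bp, and on chromosome VI left both Cbf1 lists had peaks of 2.95 and 3.08 at the same locus with summits further away. Both Cbf1 lists and neither Pho4 list had one at 1 end site, 285 bp upstream of KGD4, a subunit of the 2-oxoglutarate dehydrogenase complex, against 35 interior sites. At the further ends, a site within ELP6, a subunit of Elongator, on chromosome XIII had folds of 4.75 and 6.45 in the Pho4 lists and no summit in Cbf1 replicate 2. The KGD4 folds were 3.76 and 6.69 in the Cbf1 lists. That site has a T flank, as do all 35 of the interior.

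Over all peaks, fewer end summits than interior summits lay near an E-box, and among peaks with unique surroundings this was not so. The share of summits with CACGTG within 50 bp was 13.8% and 16.7% at the ends in the Pho4 lists, against 20.8% and 23.0% in the interior. In the Cbf1 lists it was 8.57% and 13.4% at the ends, against 16.9% and 22.3% in the interior. Over all summits of this sequence these shares were 20.1%, 22.4%, 16% and 21.5%. The mean difference was -7.65 percentage points ± 1.18 (SD, n = 4; two-sided exact sign-flip permutation p 0.13, adjusted 0.16). Among peaks with unique surroundings the shares were 22.6% and 29.2% at the ends for Pho4, against 22.7% and 24.7% in the interior. For Cbf1 they were then 23.8% and 30.0% at the ends, against 19.4% and 24.8% in the interior, and the mean difference turned to 3.48 percentage points (exact sign-flip permutation p 0.25). By position, 0.80% of end sequence and 0.77% of interior sequence lies that close to a CACGTG. The related hexamer CACGTT, searched on both strands, was within 50 bp of 10.3% and 14.3% of Pho4 end summits, against 17.0% and 16.1% in the interior. It was near 0.95% and 3.66% of Cbf1 end summits, against 5.64% and 7.13% in the interior, and covers 2.59% of end positions and 3.27% of interior positions.

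End summits also lay less often in the 500 bp upstream of a gene over all peaks. Among the few end peaks with unique surroundings the share was higher than in the interior, but within counting error in each library. Over all peaks the share was 35.3% and 39.3% at the ends for Pho4, against 48.9% and 49.6% in the interior. For Cbf1 it was 18.1% and 19.5% at the ends, against 33.9% and 32.6% in the interior. The shares over all summits were 47.5%, 48.7%, 32.1% and 31.3%. The mean difference was -13.2 percentage points ± 2.25 (SD, n = 4; two-sided exact sign-flip permutation p 0.13). With unique surroundings the shares were 54.8% and 58.3% at the ends for Pho4, against 50.4% and 50.9% in the interior. For Cbf1 they were then 38.1% and 40% at the ends, against 35.3% and 32.2% in the interior. The mean difference turned to 5.63 percentage points and was positive in 4 of 4 libraries (exact sign-flip permutation p 0.13). These end shares rest on 17 of 31 and 14 of 24 Pho4 peaks, and 8 of 21 and 8 of 20 Cbf1 peaks. Their Wilson intervals were 37.8% to 70.8% and 38.8% to 75.5% for Pho4, and 20.8% to 59.1% and 21.9% to 61.3% for Cbf1. Each interval contained the interior share of its library. Unique sequence rose from 43.2% within 5 kb of an end to 94.5% at 25 to 30 kb. The part of distance to the end in this turn was not tested. Over all peaks, summits inside coding genes were also a smaller share, with 25.9% and 27.4% of Pho4 end summits, against 42.8% and 41.4% in the interior. For Cbf1 the share was 31.4% and 34.1% at the ends, against 55.1% and 58.8% in the interior. These upstream and coding shares have no share of positions beside them. The ends held 176 coding genes in 450000 bp, against 2333 in 4585657 bp of the interior. The part of gene density in these shares was not tested. Annotated telomeric regions held 14.7% and 19.0% of the Pho4 end summits and 17.1% and 14.6% of the Cbf1 end summits. They made up 48268 of the 450000 bp of end sequence, and the summit shares were not tested against that. Of the 15 telomeric regions, 11 and 10 held a Pho4 summit and 10 and 6 a Cbf1 summit, and by definition no interior summit lies in one.

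Counted by gene, the ends differed little from the interior. Of 176 genes within 30 kb of the 15 ends, 25.6% and 20.5% had a Pho4 summit within 500 bp upstream, against 25.6% and 23.0% of 2333 interior genes. The Cbf1 shares were 11.4% and 9.66% at the ends, against 15.0% and 13.4% in the interior. Among genes whose upstream 500 bp were at least 50% unique, 126 at the ends, the Pho4 shares were 31.7% and 26.2%, against 25.6% and 23.1%. The Cbf1 shares were then 13.5% and 11.1%, against 15.2% and 13.5% of interior genes. Both Pho4 libraries had a summit upstream of 31 end genes, or 17.6%, where 19% of all genes did. Both Cbf1 libraries had one upstream of 15 end genes, or 8.52%, where 9.96% of all genes did.

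The listed genes of phosphate supply were PHO11, PHO12 and GIT1; PHO89 and PHO84, described above, also lie at the ends, with summits 335 and 426 bp upstream in the Pho4 lists. PHO11, a secreted acid phosphatase, had a fold of 4.61 and 16.2 in the Pho4 lists and no summit in the Cbf1 lists. PHO12, its near-identical copy on chromosome VIII, had a fold of 6.70 and 17.5 in the Pho4 lists and none in Cbf1 replicate 2. The values of PHO11 and PHO12 are uncertain, since only 8.46% and 8.89% of their upstream sequence is unique. Their summits lay 339 and 376 bp upstream of PHO11 and 360 and 362 bp upstream of PHO12, not at the E-box 281 bp upstream that the copies share. For GIT1 the Pho4 summits lay 530 and 503 bp upstream, just beyond the promoter window.

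The 6 listed sulfur and methionine genes had low folds or none. YCT1, the cysteine transporter described above with a fold of 22.1 in Cbf1 replicate 2, was not among the 6. SUL1, the high-affinity sulfate permease, had a fold of 2.36 and 3.22 in the Pho4 lists and no Cbf1 summit. SEO1, a putative permease, had a fold of 2.98 and 3.74 in the Pho4 lists and no Cbf1 summit. YLL058W (HSU1), which acts in the use of hydrogen sulfide, had a fold of 3.63 and 2.74 in the Pho4 lists. MMP1, the S-methylmethionine permease, had a fold of 2.42 in Cbf1 replicate 2 alone. MHT1, which makes methionine from S-methylmethionine, and JLP1, which releases sulfite from sulfonates, had no summit in any list that reached them.

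Both Pho4 libraries had a summit upstream of 2 of the 3 listed phosphate genes, besides PHO89 and PHO84, and 3 of the 6 listed sulfur genes. Of the other subtelomeric families, the maltose and isomaltase genes had the highest number. Both Pho4 libraries had a summit upstream of 4 of 10 of them, where 19.2% of all genes of chromosomes I to XIII did. All of these lay at the further ends, and none of the 4 such genes at the 15 shared ends had one in both. The 10 genes are few and some share a peak, so the count was not tested against that share. MAL11 and MAL12, a maltose permease and a maltase that share a promoter, were near the same peak, with a fold of 2.45 and 2.79 in the Pho4 lists, against 2.62 in Cbf1 replicate 2. IMA1, an isomaltase, had a fold of 4.19 and 4.44 in the Pho4 lists and no summit in Cbf1 replicate 2. Among hexose transporters HXT8 and HXT13 had one in both Pho4 libraries, of 5 at the ends, and HXT13 had a fold of 6.68 and 7.93 there with no Cbf1 summit. IMA5, another isomaltase, shared its peak with HXT8, with a fold of 2.21 and 3.57 in the Pho4 lists. COS genes gave 2 of 9, seripauperins 1 of 15 and aryl alcohol dehydrogenases 1 of 3. COS6 had a fold of 4.70 and 3.91 in the Pho4 lists, against 9.18 in Cbf1 replicate 2. COS4 had a fold of 4.68 and 3.04 in the Pho4 lists, against 2.60 in Cbf1 replicate 1 and no summit in Cbf1 replicate 2. Just beyond the 500 bp window, 505 and 546 bp upstream of COS4, the Cbf1 lists had higher summits, with folds of 9.98 and 7.51. AAD3, the dehydrogenase gene, had a fold of 2.62 and 3.05 in the Pho4 lists and none in the Cbf1 lists. PAU10, the seripauperin, had a fold of 3.57 and 4.94 in the Pho4 lists, against 2.42 and 3.53 in the Cbf1 lists.

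Several families had no gene with a summit in both Pho4 libraries. These were the 4 silent mating-type genes (HMLALPHA1, HMLALPHA2, HMRA1 and HMRA2), 3 flocculins, 4 siderophore and iron genes, 5 thiamine and pyridoxine genes and 5 Y′ helicases. The flocculin, siderophore and iron promoters had a median of 100% unique sequence, whereas the median was 10.6% for the silent mating-type genes, 9.11% for the thiamine and pyridoxine genes and 0% for the Y′ helicases. No summit was listed upstream of any of the 4 silent mating-type genes in any library. Of all 72 listed genes at the ends, 15 had a summit in both Pho4 libraries, where 19.2% of all genes of chromosomes I to XIII did. Families of 3 to 5 genes are too small to be set against that share. Of those 15 genes, 13 were among the 36 with at least 50% unique upstream sequence.

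Genes outside these families included RTG2, a sensor of mitochondrial state, with a fold of 5.08 and 10.3 in the Cbf1 lists and no summit in the Pho4 lists. SLO1, which binds an Arf-like GTPase, had a fold of 11.1 and 9.92 in the Pho4 lists, against 4.22 in Cbf1 replicate 2. Cbf1 replicate 1 had a peak with a fold of 2.21 at the same locus, but no summit within 500 bp upstream of SLO1. HXK2, the main glucose hexokinase, had a fold of 3.10 and 3.68 in the Pho4 lists and none in the Cbf1 lists. These 3 genes were chosen after their values were seen.

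Replicate peaks overlapped at the ends at least as often as in the interior. Of 84 Pho4 replicate 2 end peaks, 73 overlapped a replicate 1 peak by at least 1 bp, or 86.9%, against 84.6% in the interior and 84.8% over all, but with the upper 50% of each list the Pho4 difference was -16.6 percentage points. Of 82 Cbf1 replicate 2 end peaks, 68 did, or 82.9%, against 72.2% in the interior and 73.3% over all. The Wilson interval for Cbf1 was 73.4% to 89.5% at the ends, against 69.0% to 75.3% in the interior. Replicated Cbf1 end peaks overlapped a replicated Pho4 peak in 32 of 68 cases, or 47.1%, against 54.8% in the interior and 53.9% over all. Replicated Pho4 end peaks overlapped a replicated Cbf1 peak in 33 of 73 cases, or 45.2%, against 44.0% in the interior and 44.1% over all. Merged over lists, the end peaks formed 161 loci, of which 20.5% had a peak in all 4 libraries, 15.5% in both Pho4 libraries only, 8.07% in both Cbf1 libraries only and 36.6% in 1 library. The interior shares were 19.7%, 18.0%, 9.63% and 38.0%.

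Repeated sequence itself was more common among end peaks, and also among end positions. The 40-base word was unique at 323099 of 450000 end positions, against 4395724 of 4585657 interior positions. The share of repeated peaks was not tested against that of positions. Peaks with less than 50% unique 40-base words made up 9.48% and 13.1% at the ends in the Pho4 lists, against 0.51% and 0.23% in the interior. In the Cbf1 lists they made up 13.3% and 12.2% at the ends, against 0.49% and 0.26% in the interior. The mean difference was 11.7 percentage points ± 1.84 (SD, n = 4; two-sided exact sign-flip permutation p 0.13). It was 2.56 percentage points with 60-base words (p 0.25). None of the 10 differences between Pho4 and Cbf1 could pass a test, since 2 libraries against 2 allow no exact permutation p below 0.33, and the 10 values of p ran from 0.33 to 1.00 (0.67 to 1.00 adjusted).

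The single peaks nearest to the 30 kb limit on either side lay on different chromosomes within each list, so they show no trend across it. The Pho4 peaks just inside it had folds of 2.29 and 3.87 and those just outside 4.44 and 5.35. The Cbf1 peaks just inside had folds of 2.48 and 2.77 and those just outside 2.00 and 2.13. By median, folds at 25 to 30 kb were 3.37 and 3.87 for Pho4, with 2.06 and 2.94 for Cbf1. At 30 to 40 kb the medians were 3.00 and 3.64 for Pho4, with 2.00 and 4.02 for Cbf1.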

How the data were processed

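The deposited narrowPeak lists, 1 per library, came from reads of Myc-tagged Pho4 and Cbf1 (2 libraries each). Per the submitters' processing notes, the tools were cutadapt 1.8.1, Bowtie 1.1.2, SAMtools 1.3.1, bedtools and MACS2 2.1.1, with build sacCer3, and settings are not given in the sources used here. Fold, as deposited, is a ratio of summit height to local background, solved here with 1 read added to each. The deposited −log10 p, −log10 q and score columns rank peaks. Summits were assigned to ends by position, with 1-based coordinates.

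Height and background were solved from fold and p (tolerance 0.001, −log10 p up to 250), which worked for 97.5% to 100% of the end peaks under that limit. Sites were found in the R64 sequence and annotation of S288C, and W303 may differ there. Repeats were scored with 40-base words. Promoters were 500 bp upstream of coding genes. Ends minus interior was tested by exact sign-flip over 4 libraries, and Pho4 minus Cbf1 by exact permutation over 6 assignments, both two-sided. Odds ratios had 0.5 added to each cell, and intervals are 95% Wilson. Scripts used Python 3.11.15, pandas 2.3.3, numpy 2.4.6 and SciPy 1.17.1, and were tested on simulated data.

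Named peaks are the 8 replicated peaks of highest mean fold rank per factor at the shared ends and the 5 for Pho4 at the further ends. The members and gene lists were chosen with earlier results of these data known, and 3 of 100 listed genes had no match. Alternatives were ends of 20 and 50 kb, each list's own extent, stricter peaks, equal list lengths, other windows, 60-base words, no repeated peaks, a replicate block and each library left out.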

Additional observations from a re-analysis of the deposited data

Results flagged for a closer look

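One result lay in data that the comparisons do not use. The Pho4 replicate 2 list, which alone runs on to chromosomes XV and XVI, held 35 peaks within 30 kb of the 6 ends of chromosomes XIV to XVI. These had a median fold of 3.52 and a median local background of 8.38 reads. At the left end of chromosome XIV it held 6 of them, with folds up to 26.1. Pho4 replicate 1 also reaches that end and held 8 peaks there, with folds up to 22.6. Cbf1 replicate 2 stops within it after 1 peak with a fold of 2.79. The other 5 ends are reached by Pho4 replicate 2 alone.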

How the results depend on the processing

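Of 276 alternative values, 235 kept their direction, 2 moved and 39 changed sign, and the cause was not tested. The 235 include the replicate block values, which repeat the main value by definition. They also include the overlaps within Cbf1 and between the factors over each list's own extent, which use the same sequence as the main values. For ends minus interior over the 4 libraries, the log2 density ratio was -0.061 with only each list's upper 50% by −log10 q. E-boxes with a summit were at 0.63 percentage points with unique sites, and genes with a promoter summit were at 1.28 with unique promoters. With unique surroundings the E-box share of summits was 3.48, promoter share 5.63 and width 42.9 bp. These alternatives on unique sequence were chosen after seeing the data. With replicate number as a block, Pho4 minus Cbf1 kept its values, such as -1.03 for the T flank log2 odds ratio and -0.17 for fold, with exact p of 0.50 to 1.00; only 2 pairs exist and nothing in the labels pairs them. For Pho4 minus Cbf1, with ends of 20 kb the T flank value was 0.047. With ends of 50 kb, log2 background was -0.032 and sites with a summit -0.64. With each list's own extent, sites with a summit were at -1.45, promoter share at -3.20 and genes at -1.01. With the upper 50%, fold was 0.014 and genes -1.01, and with equal lists genes were at -0.26 and repeated peaks at 0.99. With 60-base words repeated peaks were at 1.59. Without repeated peaks background was -0.012, and with unique surroundings fold was 0.082, background -0.15, width -54.8 bp and E-box share -2.61. A 25 bp window gave -1.42 for the E-box share of summits and -5.44 for sites, and a 100 bp window -0.34 for sites. With each library left out in turn, Pho4 minus Cbf1 ran from -0.26 to 0.012 for density, -0.14 to 3.40 for sites and -3.41 to 0.47 for repeated peaks. Replicate overlap of Pho4, ends minus interior, was -0.93 with 20 kb, -0.29 with 50 kb, -16.6 with the upper 50% and -5.98 with equal lists. The Cbf1 share shared with Pho4 was 0.27 with 20 kb, 6.98 with 50% reciprocal overlap and 10.9 with summits within 50 bp. The Pho4 share shared with Cbf1 was 14.2 with 20 kb, -0.74 with 50 kb, -2.58 without repeated peaks and 13.3 with summits within 50 bp.

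The lists stop early, and 36 E-boxes at the ends and 4 libraries are few. S288C is not W303, and sequence at ends can differ between strains. How reads with several matches were placed is not given in the sources used here.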
